A study of Saccharomyces cerevisiae with 4 samples.

Results

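The mitochondrial chromosome of *S. cerevisiae* was described from the BrdU-IP-Seq profile of *WT* and *rif1Δ* cells held in HU. Its members are all 50 bp bins of chromosome 17 in the deposited profile, 1716 of 243150 bins, and they were taken by chromosome alone, with no measured value. The last bin ends at 85779, the length of the mitochondrial chromosome in genome release R64. Each strain gave 2 libraries (4 in all), which were deposited as 1 averaged value per strain and bin. No value below therefore has an error between replicates, and no difference between strains could be tested.

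Both strains are *MAT*a haploids derived from W303. They share the markers *can1-100*, *trp1-1*, *his3-11,15*, *ura3-1* and *ade2-1*, the deletion *bar1Δ::hisG*, and the cassette *LEU2::BrdU-Inc*, which lets yeast take up and use the thymidine analog BrdU. The *rif1Δ* strain differs by replacement of *RIF1* with KanMx, and whether it is 1 clone is not given in the sources used here. Cultures were arrested in G1 with 7.5 nM α-factor for 4 h at 23 °C and were then released for 45 min with pronase (200 µg/mL), BrdU (400 µg/mL) and HU, which the labels give as 0.2 with no unit and the methods as 0.2 M. Over *RIF1* itself the signal averaged 3.09 in *WT* and 0.433 in the *rif1Δ* strain, which lacks the gene.

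Mitochondrial DNA is present in many copies per cell, and its replication does not depend on the nuclear origins nor on S-phase. In budding yeast it encodes cytochrome b of respiratory complex III, core subunits of complex IV and membrane subunits of ATP synthase. It also encodes 1 ribosomal protein, both rRNAs of the mitochondrial ribosome and a set of tRNAs. Several genes contain introns with reading frames for maturases and homing endonucleases, and long AT-rich stretches separate the genes. The R64 gene table lists 46 mitochondrial genes, of which 19 are protein-coding, 2 are rRNA, 24 are tRNA and 1 is the RNA gene *RPM1*. It gives a start and an end for each gene and neither exons nor origins of mitochondrial replication, so neither was assigned here. The table is of S288C, and which of the listed introns these W303-derived strains carry was not examined.

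BrdU signal was high on the mitochondrial chromosome in both strains. Its bins averaged 304 (*WT*) and 374 (*rif1Δ*), against nuclear means of 12.6 and 12.1. The values of both strains come from immunoprecipitated DNA, and the methods describe no division by total DNA or copy number. These means therefore compare coverage and not BrdU per copy of DNA. The part of copy number, of background in the precipitate and of read alignment in this difference was not tested. The lowest mitochondrial bin had 84.1 (*WT*) and 112 (*rif1Δ*), and only 3.12% and 2.26% of nuclear bins exceeded these values. The highest bin had 1038 and 1043, and the highest nuclear bin 678 and 671. Signal was also very uneven along the chromosome. The highest bin was 12.3 times the lowest in *WT* and 9.30 times in *rif1Δ* cells, and the coefficient of variation over bins was 93.3% and 70.9%. Bins are not independent, since the authors smoothed the profile over 1 kb. Bins 500 bp apart had a Pearson's r of 0.801 (*WT*) and 0.826 (*rif1Δ*), and bins 2000 bp apart 0.383 and 0.380. The part of smoothing in these correlations was not tested.

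**Figure D1:**
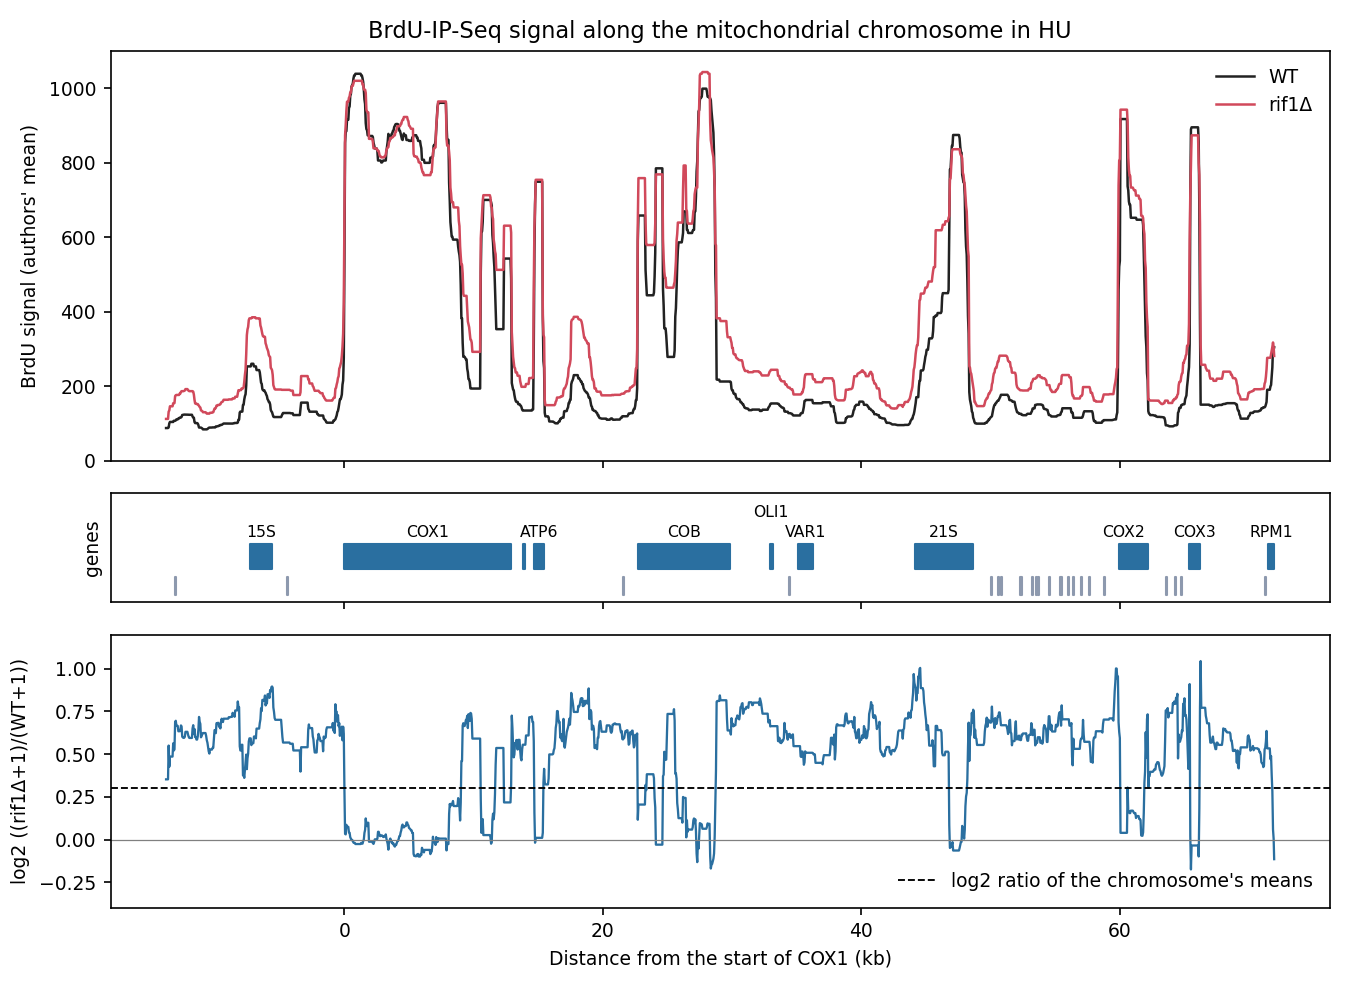
Signal of both strains (top), listed genes (middle, tRNA genes as thin marks below) and log2((*rif1Δ* + 1)/(*WT* + 1)) (bottom) for every 50 bp bin, against distance from the start of *COX1* in kb. Both strains show the same plateaus over *COX1*, *COB*, 21S, *COX2* and *COX3*, and the log2 ratio is below the chromosome's own 0.30 on most of these plateaus and near 0.6 between them.

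The profile followed the gene map. Base composition along the chromosome was not examined, so its part in the levels of genes and of the sequence between them was not tested. A high stretch was taken as a run of at least 500 bp at or above 1.5 times the strain's own mitochondrial mean (a limit of 455 for *WT* and 561 for *rif1Δ*). *WT* cells had 10 such stretches covering 20.2 kb, or 23.5% of the chromosome, and these held 60.8% of the summed mitochondrial signal. *rif1Δ* cells had 9 covering 21.95 kb, with 54.3% of the signal. The 5 highest by mean *WT* signal lay over *COX3* (79251 to 80000, 864 in *WT* and 845 in *rif1Δ*), *COX1* (13801 to 22850, 856 and 865), 21S rRNA with *SCEI* (60551 to 62050, 773 and 782), *COB* (39501 to 42550, 767 and 800.4) and *ATP6* (28501 to 29150, 729 and 738). Of the bins in high stretches, 99.8% overlapped a listed gene in either strain, against 41.3% of all mitochondrial bins. Of the 22 listed genes other than tRNA genes, 17 overlapped a high stretch in each strain. Of the 22, 10 are frames inside *COX1*, *COB* or 21S and share their host's stretches, and without them 7 of 12 overlapped one. The same 5 did not in both strains: 15S rRNA, *ATP8*, *OLI1*, *VAR1* and *RPM1*. None of the 24 tRNA genes overlapped one.

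*COX1* (Q0045, 13818 to 26701 of the mitochondrial chromosome, R64), the gene for the catalytic core of cytochrome c oxidase, carried the longest plateau. The whole gene averaged 726 in *WT* and 762 in *rif1Δ* cells. It held 36.0% and 30.7% of all mitochondrial signal on 15.04% of the bins. The level was not even within the gene. The table lists 6 intron reading frames inside it, and 5 of them share the start of *COX1*, so the gene was divided at their ends. The first piece, up to the end of *AI1* at 16322, had the highest mean, 939.9 in *WT* and 949 in *rif1Δ* cells. *AI1* and *AI2* encode reverse transcriptases that also act as maturases of their own introns. The next pieces, ending with *AI2*, *AI3* and *AI4*, stood between 853 and 875 in *WT* and between 824 and 868 in *rif1Δ* cells. The piece ending with *AI5_ALPHA* had 521 and 627. Signal was lowest from 23168 to 24155, where no intron frame is listed, with 214 in *WT* and 338 in *rif1Δ* cells. It was higher again over *AI5_BETA*, with 587 and 621, and 459.8 and 575 over the last 1446 bp.

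*COB* (Q0105, 36540 to 43647), which encodes cytochrome b of complex III, averaged 575 in *WT* and 658 in *rif1Δ* cells. High and low pieces alternated along it, in the same order of level in both strains. The piece up to the end of *BI2* had 597 and 679, the piece ending with *BI3* 438 and 568, and the piece ending with *BI4* 827 and 851. *BI2*, *BI3* and *BI4* are maturase frames of the *COB* introns. The remaining 1396 bp after *BI4* had 345 in *WT* and 459 in *rif1Δ* cells. The highest value of the *rif1Δ* profile was shared by 9 adjoining bins in *BI4* (41501 to 41950), and that of the *WT* profile by 9 in *AI1* (14651 to 15100).

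The other genes of respiratory complex IV were also high. *COX2* (Q0250, 73758 to 74513) had 840.2 in *WT* and 913 in *rif1Δ* cells, and *COX3* (Q0275, 79213 to 80022) had 829.8 and 829. The maturase-like frame Q0255, which overlaps the end of *COX2*, had 586 and 663. Among the genes for ATP synthase subunits only *ATP6* (Q0085, 28487 to 29266) was high, with 675 and 688. *ATP8* had 135 and 198, and *OLI1* 152 and 242, levels close to the 133 and 205 of the sequence between genes. These 2 genes span only 3 and 5 bins, less than the 1 kb over which the authors smoothed, so their own level cannot be told apart from that of their flanks. *COX2*, *ATP6* and *COX3*, and *SCEI* and *RPM1* below, are also shorter than 1 kb, so their means are smoothed with their flanks too. *VAR1* (Q0140, 48901 to 50097), the gene for the ribosomal protein, is 1197 bp long and ranged from 121 to 163 in *WT* and from 178 to 232 in *rif1Δ* cells, below the chromosome's mean throughout.

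The 2 rRNA genes differed. The 15S rRNA gene (Q0020, 6546 to 8194) had 210.2 in *WT* and 344 in *rif1Δ* cells and reached no more than 260.1 and 385. The 21S rRNA gene (Q0158, 58009 to 62447) had 469 and 587, and its level depended on position. The part before *SCEI*, the intron frame for the homing endonuclease I-SceI, had 396 and 554, *SCEI* itself (61022 to 61729) 842 and 822, and the part after it 381 and 478. *RPM1* (85295 to 85777), the RNA of mitochondrial RNase P, had 236 and 289. The 24 tRNA genes ranged from 95 to 177 in *WT*, with a median of 127, and from 161 to 282 in *rif1Δ* cells, with a median of 198. Each of them spans 1 or 2 bins, so these are levels of their neighborhood.

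**Figure D2:**
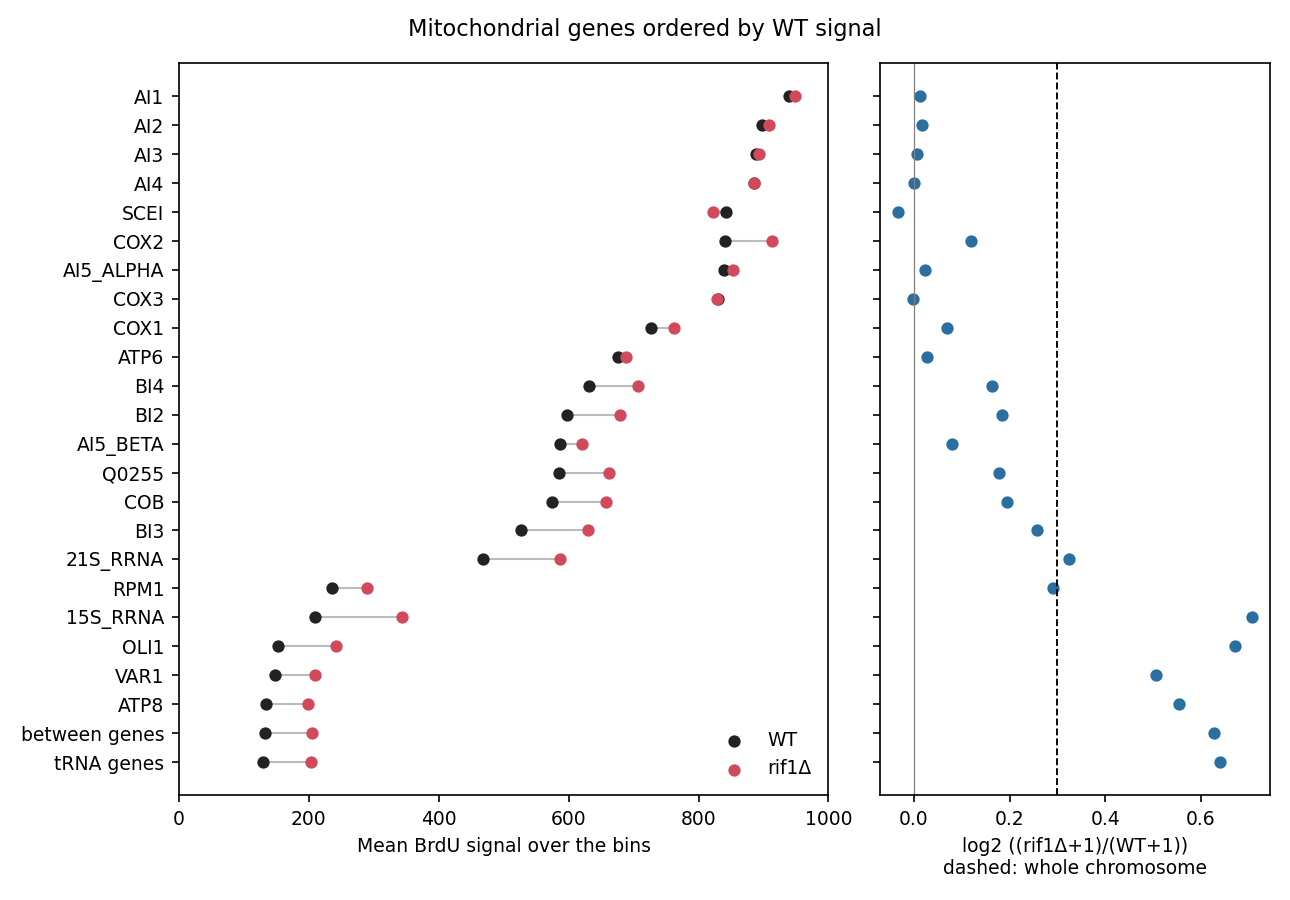
Mean signal over the bins of each gene (left) and log2((*rif1Δ* + 1)/(*WT* + 1)) of these means (right), with the pooled tRNA genes and the sequence between genes, in order of *WT* signal. Genes above about 500 in *WT* lie left of the chromosome's ratio (dashed, 0.30), and the 5 lowest features lie between 0.51 and 0.67. Each strain has 1 averaged value, so there are no error bars.

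Steps in the signal fell at the ends of several genes. For genes of at least 1 kb, and for *COX2* with Q0255, the position was found where signal crossed halfway between the flank (500 to 1500 bp outside) and the outer 1 kb of the gene. It is given only where the signal inside was at least 1.5 times that of the flank in both strains, which left out both ends of *VAR1* and the ends of *COB* and 15S. At the start of *COX1* the signal went from 107 in the flank to 949.7 in *WT* and from 171 to 966 in *rif1Δ* cells, and the crossing lay 7 bp inside the gene in both strains. At the start of *COB* it lay 15 bp outside in both strains, with 4.73 times as much signal inside as outside in *WT* and 3.69 times in *rif1Δ* cells. At the start of *COX2* it lay 33 bp outside in both, with a step of 7.45 and 5.05 times. These offsets are below the 50 bp of a bin. All crossings are positions in a profile smoothed over 1 kb, so they do not place the underlying change in signal to within a bin. The end of *COX1* was crossed 24 bp outside the gene in both strains. At the end of the 21S rRNA gene the crossing lay 322 bp inside it in both strains. Of these crossings, the 3 that differed between strains did so by 50 bp: the start of the 21S rRNA gene was crossed 66 bp inside in *WT* and 16 bp inside in *rif1Δ* cells, that of the 15S rRNA gene 371 and 321 bp outside, and the end of Q0255 159 and 109 bp inside. Around *VAR1* there was no step, with 1.06 times as much signal inside its start as outside in *WT* and 0.993 times in *rif1Δ* cells.

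**Figure D3:**
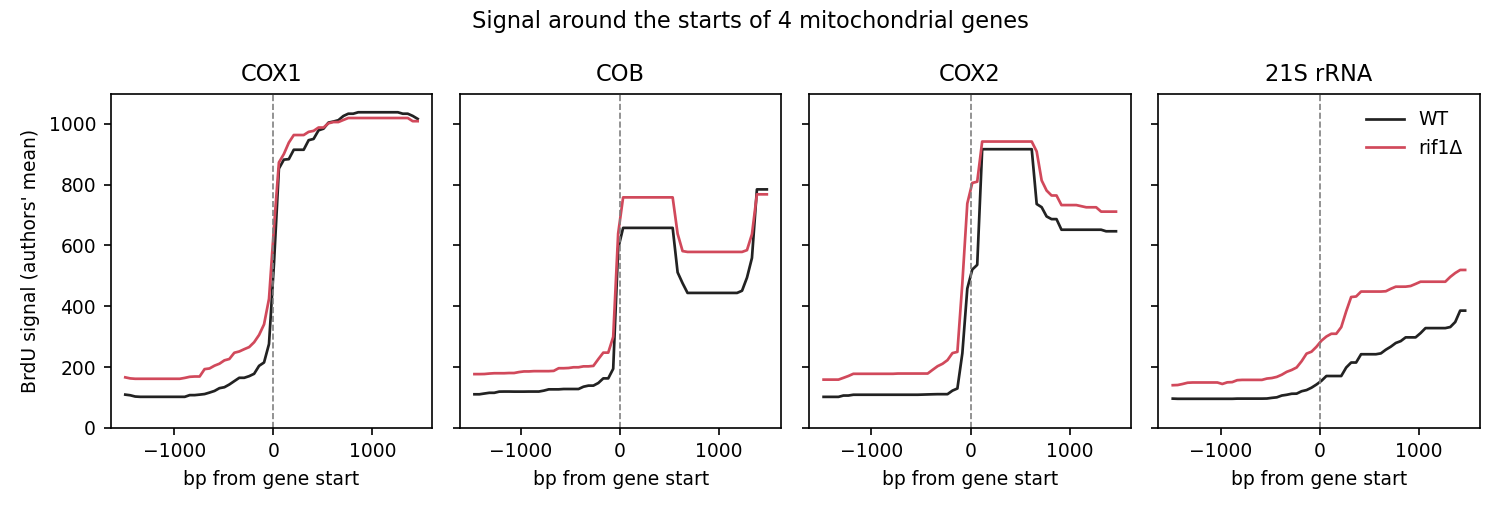
Signal of both strains within 1500 bp of the start (dashed) of *COX1*, *COB*, *COX2* and the 21S rRNA gene. The steps at the first 3 genes cross halfway within 50 bp of the gene's start in both strains, while the 21S rRNA gene shows a gradual increase.

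Low stretches lay mostly between genes. They were runs of at least 500 bp at or below 0.5 times the strain's own mitochondrial mean, 152 in *WT* and 187 in *rif1Δ* cells. *WT* cells had 15 covering 44.35 kb, or 51.7% of the chromosome, and *rif1Δ* cells 14 covering 22.55 kb, or 26.3%. Of the bins in low stretches, only 8.57% (*WT*) and 5.99% (*rif1Δ*) overlapped a listed gene, against 41.3% of all mitochondrial bins. The longest in *WT* cells, 65701 to 73650, holds 13 tRNA genes and averaged 125 (*WT*) and 195 (*rif1Δ*). The lowest by *WT* signal ran from 1 to 6050, with 104 and 159.7, and includes the lowest *WT* value, shared by 7 bins (2851 to 3200). The 4 next lowest were 62301 to 64200 (112 and 176), 54001 to 58000 (113 and 179), 29301 to 31150 (114 and 168) and 76001 to 78800 (115 and 171). Outside the genes the signal was not flat. From 31001 to 33000, where no gene is listed, the 2 windows of 1 kb had 198 and 185 in *WT* and 333 and 322 in *rif1Δ* cells, against 112 and 122 in *WT* and 173 and 188 in *rif1Δ* cells in the windows on either side. The 4 bins at the start of the chromosome had 1 constant value, the lowest of the *rif1Δ* profile, and the last bins, over *RPM1*, were higher. The first 1 kb averaged 102 in *WT* and 148 in *rif1Δ* cells, and the last window (85001 to 85779) 209 and 271, although these ends adjoin on a circular map.

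Both strains had the same profile in outline. Over the 1716 bins Pearson's r between strains was 0.986 and Spearman's rho 0.980, and over 86 windows of 1 kb these were 0.991 and 0.987. On the 16 nuclear chromosomes r ranged from 0.789 to 0.969 and rho from 0.569 to 0.773. These correlations describe positions that share libraries, smoothing and base composition. The median nuclear bin had 3.625 in *WT* and 3.5 in *rif1Δ* cells, below every mitochondrial bin, so the nuclear correlations are not at like signal. Of the length of the *WT* high stretches 99.8% was also high in *rif1Δ* cells, and of that of *rif1Δ* 91.8% was also high in *WT*. All 451 bins in low stretches of *rif1Δ* were also in those of *WT*. They made up 50.8% of the 887 *WT* bins, the largest share that the list sizes allow. The limit for low signal lay near the median bin in *WT* (152 and 150) and below it in *rif1Δ* cells (187 and 230).

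In the deposited values, whose scaling is described below, the strains differed in the contrast between genes and intervening sequence. Of the mitochondrial bins, 1571 (91.6%) had more signal in *rif1Δ* cells, against 47.9% of all bins in the series, and from 35.9% to 54.9% on the nuclear chromosomes. All 1038 bins between genes were higher in *rif1Δ* cells (100%), and so were all bins of the tRNA genes. The mean between genes was 133 in *WT* and 205 in *rif1Δ* cells, a log2 ratio of 0.63. Of the bins in protein-coding genes 75.4% were higher, and the means were 644 and 697, a log2 ratio of 0.11. The rRNA genes had means of 399 and 521 and a log2 ratio of 0.38. The ratio of the chromosome's means was 1.23, or 0.30 on the log2 scale, and the highest of the 16 nuclear chromosomes had 1.21. The median over mitochondrial bins was 0.58, since the mean weights the high bins. Genes had 4.26 times the mean signal of the sequence between them in *WT* and 3.08 times in *rif1Δ* cells.

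The ratio depended on the level of signal. In mitochondrial bins whose mean of both strains was above 100 and up to 150, the median log2 ratio was 0.63. It was 0.61 from 150 to 200, 0.71 from 200 to 300 and 0.69 from 300 to 400. Above this it was smaller, with 0.54 from 400 to 500, 0.38 from 500 to 600 and 0.13 from 600 to 700. Above 700 it was 0.01, over 297 bins. As differences, *rif1Δ* minus *WT* signal averaged 66.3 in bins of 200 or less and 6.35 in bins over 700. Nuclear bins of the same levels had median log2 ratios from -0.29 to -0.02 up to a signal of 600. Only 11 nuclear bins lay between 600 and 700, all with the same log2 ratio of 0.09, and none lay above.

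**Figure D4:**
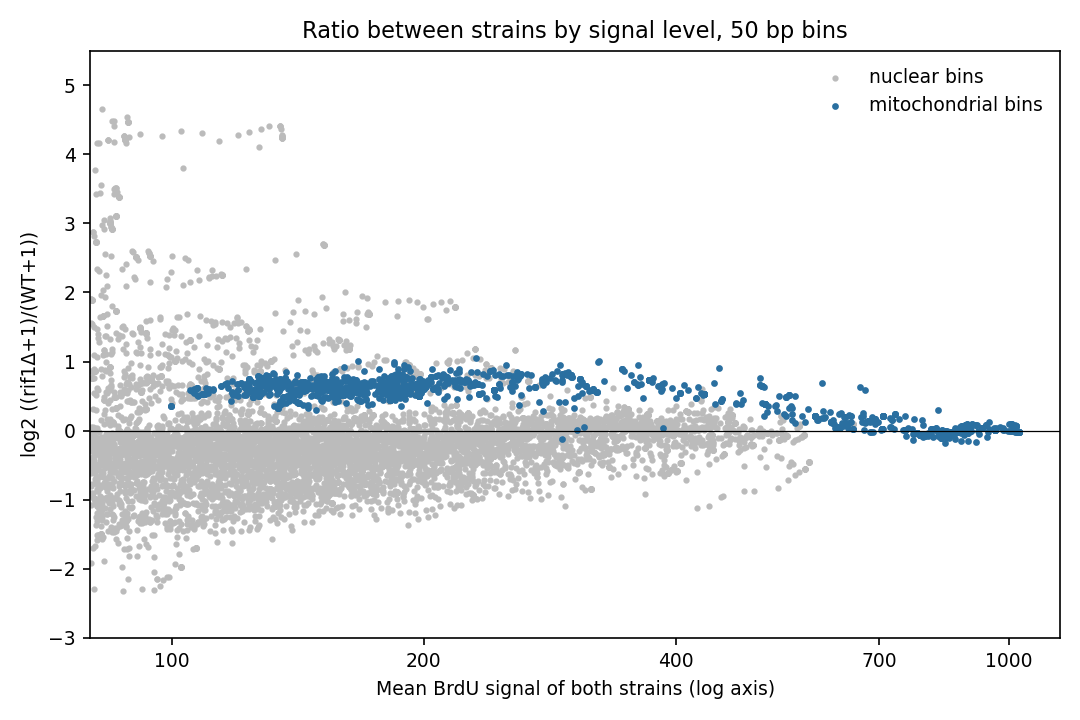
log2((*rif1Δ* + 1)/(*WT* + 1)) of each bin against the mean signal of both strains (log axis), for mitochondrial bins (blue) and nuclear bins above 80 (grey). Mitochondrial bins lie in a band near 0.6 up to a signal of about 400 and near 0 above 700, where no nuclear bin lies.

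The scaling of the profile bears on this pattern. Over all bins of the series the columns held nearly 1 distribution of values. The 90th percentile was 19.6 in both, the 99th was 254 (*WT*) and 249 (*rif1Δ*), the highest 0.1% began at 766 in both, and the mean was 14.7 in both. No nuclear bin exceeded 700 in either strain, while 265 mitochondrial bins did in *WT* and 321 in *rif1Δ* cells, so the top of this distribution was mitochondrial alone. The near-equal signal over *COX1*, *COX3* and *SCEI* cannot be told apart from what equal distributions fix at their upper end. The same holds for the smaller contrast between genes and intervening sequence in *rif1Δ* cells, which rests partly on these high bins. With equal means, a higher mitochondrial share of signal (18.0% in *rif1Δ* and 14.6% in *WT* cells) also goes with a lower nuclear share.

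Departures from the chromosome's own ratio were few by the rule used, a log2 ratio at least 0.5 away from 0.30 for at least 500 bp. Of single bins 94 (5.48%) lay that far above, against 16.2% of all bins in the series measured from the ratio of their means. None lay that far below, against 20.4%. These shares are not at like signal, since the median nuclear bin had 3.625 in *WT* and 3.5 in *rif1Δ* cells. Only some of the 94 bins lay in runs of at least 500 bp, which formed 2 stretches covering 1.75 kb. One, 42601 to 43400 in *COB* after *BI4*, had 214 in *WT* and 377 in *rif1Δ* cells, a mean log2 ratio of 0.82. The other, 57751 to 58700 across the start of the 21S rRNA gene, had 188 and 350.2, a mean log2 ratio of 0.89. Both depend on the centre and on the length asked for: around the median log2 ratio over bins (0.58) there were 0 stretches above and 9 below, and with runs of at least 1 kb 0 above. The largest log2 ratio of a single bin was 1.04 just after the end of *COX3* (80051 to 80100, 150.4 and 311). The smallest was -0.18 within *COX3* (79301 to 79350, 889 and 787). At 0.25 in place of 0.5 there were 21 stretches above, covering 45.85 kb, with mean *WT* signal from 94.6 to 395. There were 9 below, covering 10.7 kb, all in *COX1*, *ATP6*, *COB*, 21S, *COX2* or *COX3* and with mean *WT* signal from 698 to 1016.

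Since the ratio depended on the level, each bin was also compared with the median log2 ratio of mitochondrial bins of like signal. The SD of the log2 ratio over bins was 0.27 before and 0.11 after this step. With a limit of 0.15, chosen after the values were seen, 4 stretches lay above and 4 below. Those above were at the end of the 15S rRNA gene (7851 to 8350, 143 in *WT* and 261 in *rif1Δ* cells), from 44751 to 46100 between *COB* and *OLI1* (137 and 239), within the 21S rRNA gene (58201 to 58700, 227 and 427) and at the start of *COX2* (73351 to 73850, 246 and 415). Those below were across the end of *ATP6* (29151 to 29650, 174 and 212), after *VAR1* (50251 to 50850, 154 and 211), after Q0255 (76001 to 77300, 120.1 and 159) and over *RPM1* to the end of the chromosome (85201 to 85779, 229 and 287). On steep parts of the profile a shift of a single bin between strains changes the ratio, and 4 of these 8 stretches hold a start or end of a gene. Its part in them was not tested.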

How the data were processed

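BrdU-IP-Seq libraries (50 bp paired-end reads) from 2 *WT* and 2 *rif1Δ* cultures were used. The authors removed barcodes, aligned reads to release R64 with Bowtie2 and summed them in bins of 50 bp. A running median over 1 kb was taken, replicates were quantile-normalized to each other and averaged, and the mean was smoothed once more. The deposited unit is thus a smoothed coverage signal, given as 1 authors' mean per strain. The scaling between strains and the depth per library are not given in the sources used here. No value column was left unused (0).

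Mitochondrial bins were taken by chromosome number. Gene positions and names came from the RefSeq table of R64. Gene means used bins whose centre lay in the gene, and stretches were named by overlap. Log2 ratios used a pseudocount of 1. No test was run, since each strain has 1 value per bin. The rule for names took all mitochondrial genes, the tRNA genes as a group, the 5 highest and 5 lowest stretches by *WT* signal, and up to 5 departing stretches in each direction. No genome sequence was used here, so no sequence is shown. The members, gene lists and rules were chosen with earlier results of these data known. On 100 simulated profiles of 1716 bins, all 800 stretches placed were found with exact ends. These profiles had flat levels, square edges and independent noise in each bin, unlike the smoothed data. They therefore check the code only and do not show how exact the ends of the stretches described here are. Python 3.11.15, numpy 2.4.6, pandas 2.3.3 and matplotlib 3.10.9 were used.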

Additional observations from a re-analysis of the deposited data

How the results depend on the processing

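Without replicate values, ratios between strains were taken to have moved where they changed by more than 0.1 on the log2 scale, gene signal and its ratio to the sequence between genes by more than 25%, shares by more than 5 points, counts by more than 1.5 times and correlations by more than 0.05. Of the alternative values for the main results 36 stayed within these limits and 18 did not, and the 112 for single genes (signal, 25%, and log2 ratio, 0.1) all stayed within them. With medians over bins, genes had 4.81 (*WT*) and 3.51 (*rif1Δ*) times the signal between genes, within the 25% but wider than 0.1 on the log2 scale. The ratio of 1.23 was 1.53 from medians over bins and 1.44 without bins above 700 in mean signal. The share of bins higher in *rif1Δ* cells was 97.0% after division by nuclear means and 76.8% after division by mitochondrial means. With runs of at least 1 kb there were 5 high stretches in *WT* cells. No low stretches (0) were left in either strain at 0.25 times the mean or 0.5 times the median. Stretches above the chromosome's ratio numbered 21 at 0.25, 0 at 1, 1 with a pseudocount of 10, 0 around the median ratio, 0 with runs of 1 kb and 4 at like signal. Those below numbered 9 at 0.25, 9 around the median ratio and 4 at like signal. What caused these changes was not tested. The comparison at like signal and the removal of bins above 700 were chosen after seeing the data. The comparison with G+C content was not run, since no genome sequence was used here. No paired analysis was possible because both replicates of a strain were averaged before deposit. Single replicates could not be left out either. The number of reads behind a bin is unknown, so no limit from depth can be given.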
